A study of Mus musculus with 12 samples.

Results

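The RNA bound to tagged ribosomes of mouse sensory neurons was compared between dorsal root ganglia with and without sciatic nerve injury. The comparison took the 6 immunoprecipitated (IP) samples among the 12 of the series, 3 labelled injured and 3 labelled uninjured, and the 101744 mouse transcripts that the deposited table lists by Ensembl ID. The other 6 samples are the input, labelled total RNA, with the same split by injury. Mice of every group carried the genotype RPL22HA+/+;Advillin-Cre+, so uninjured ganglia held the tag and the Cre as well. The sources used here do not give the time after injury, the age of the mice or any pooling of animals. The labels' extraction text for the input describes an immunoprecipitation too, so how the input RNA was made is uncertain.

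In RiboTag mice, Cre recombination makes a cell produce the ribosomal protein RPL22 with an HA epitope, and an anti-HA antibody then pulls down its ribosomes with the RNA they carry. Advillin is expressed in peripheral sensory neurons, so the IP is designed to sample the RNA those neurons are translating within a ganglion that also holds satellite glia, Schwann cells, macrophages and vessels. Sensory neurons whose peripheral axon is cut are known to switch on transcription factors and growth genes of regeneration and to lower many genes of their specialised sensory state. Gene names are not paired with transcript IDs in the files, and the available gene tables matched 0 of the IDs. The differences are therefore described by transcript, and the lists of injury genes, neuropeptides, channels and cell type markers were not read. The labelled tissue and neuronal origin could not be checked against their markers either.

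The IP samples held 211497 to 212449 estimated counts in the uninjured and 190594 to 190702 in the injured group. The 3 totals of a group differed by 0.449% and 0.0566% of their mean. Among transcripts with a mean of at least 300 counts, the spread between the 3 samples, as the median chi-square statistic over the one that counting noise gives, was 1.34 in uninjured (41 transcripts) and 0.945 in injured IP (40). In the classes from 10 to 300 counts, which held most transcripts, it was 1.09 to 1.27 in uninjured and 1.22 to 1.65 in injured IP. With the samples as replicates, edgeR's common biological coefficient of variation was 28.5%. The most abundant transcript, for example, had 26129, 26323 and 26026 counts in the uninjured samples and 17054, 17098 and 17141 in the injured ones. Because most transcripts differed by little more than counting noise, the 3 samples were added up and each group was counted as 1 sample. The differences below thus have no replicate check, the 3 values are called portions, and the intervals cover counting error only. A minority of transcripts spread further. In classes of transcripts with 10 or more counts per portion on average, 2.5% to 12.9% had a chi-square p under 0.01, where counting noise gives 1%.

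RNA recovered by IP differed between injured and uninjured ganglia in both directions. Of the 5311 transcripts with at least 30 counts over both groups, 682 (12.8%) were called higher and 504 (9.49%) lower in injured IP, 1186 (22.3%) in all. A transcript was called where its share of the IP total changed by 2-fold or more, the ratio's 95% counting interval left out 1, and no portion of one group overlapped the other group. The median fold was 3.09 among those called higher and 2.76 among those called lower. The difference reached 4-fold in 213 higher and 105 lower transcripts, and 8-fold in 44 and 40. Across all compared transcripts the median log2 fold was 0.03, with quartiles of -0.60 and 0.67. Transcripts called higher made up 57.5% of those called with IP totals as the scale, 54.8% with TMM factors of the IP groups, and 48.6% when the 2 most abundant transcripts were kept out of the totals. That last scale moved the median log2 fold to -0.09, so which direction held the larger number depends on the scale. When the labelled samples were taken as replicates, edgeR's quasi-likelihood test called 955 of 3135 transcripts (30.5%) at an adjusted p under 0.05, 492 higher and 463 lower. Its filter on low counts kept 793 of the 1186 transcripts, and it called 651 of them in the same direction, which is 82.1% of the 793, 54.9% of the 1186 and 68.2% of its own calls. DESeq2 called 170 of 5787.

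**Figure D1:**
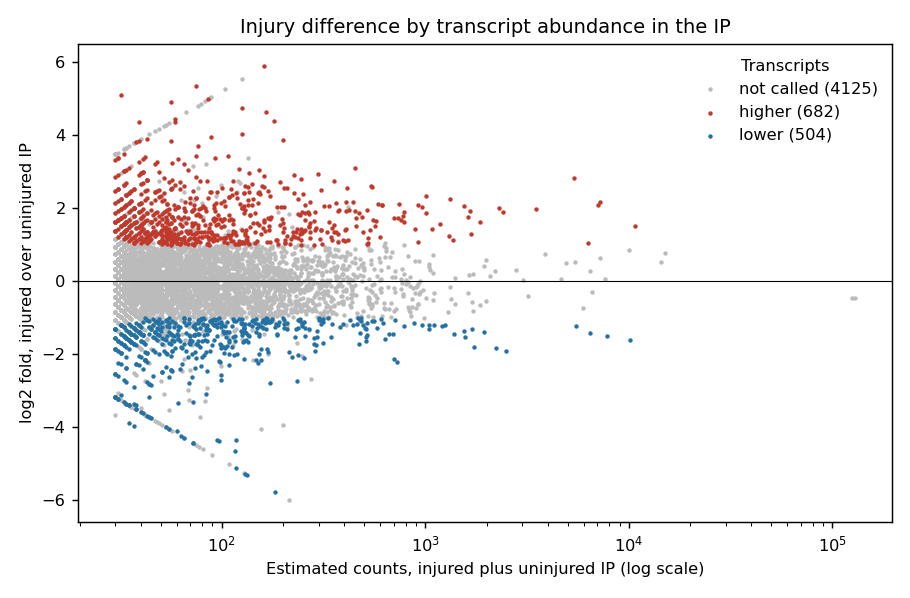
Each point is 1 of 5311 transcripts, with its estimated counts over both IP groups on a log axis and its log2 fold of injured over uninjured IP. The 682 transcripts called higher (red) and the 504 called lower (blue) lie at every abundance, and the folds spread more widely at low counts.

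Differences were called at every abundance, while the depth limited what could be seen at low counts. With 30 to 100 counts over both groups, 753 of 3588 transcripts (21.0%) were called, and with 100 to 300 counts 291 of 1273 (22.9%). With 300 to 1000 counts the number was 105 of 372 (28.2%), and with 1000 to 3000 counts it was 27 of 52 (51.9%). Of the 26 transcripts with 3000 counts or more, 10 were called (38.5%). The upper end of the counting interval was a median of 3.59 times its lower end in the first class and 1.11 times in the last. The interval lay wholly within a 2-fold change either way for 462 of the 3588 transcripts in the first class (12.9%) and for 16 of the 26 in the last (61.5%). For the other uncalled transcripts of low count, a 2-fold difference was not excluded at this depth. Among the 4125 transcripts not called, 407 differed at least 2-fold but failed the clause on the interval or on overlap.

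The composition of the IP moved with injury. Transcripts called higher held 5.66% of the uninjured IP (portions 5.62% to 5.70%) and 18.9% of the injured IP (18.9% to 19.0%). Those called lower held 12.9% (12.9% to 13.0%) and 4.67% (4.54% to 4.80%). These shares follow from the calls themselves and describe their weight. A pair of transcripts that ranked first and second in both IP groups was not called. Its share was 24.2% in uninjured and 17.6% in injured IP, a fold of 0.727 (95% counting interval 0.719 to 0.735) for the first and 0.729 (0.721 to 0.737) for the second. The remaining compared transcripts held 47.3% and 48.2%, and those below the count minimum 9.89% and 10.6%. Few transcripts carried much of the difference. The 32 with the largest gain made up 50.4% of the summed gain of the 682, and the 23 with the largest loss made up 50.2% of the summed loss of the 504.

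**Figure D2:**
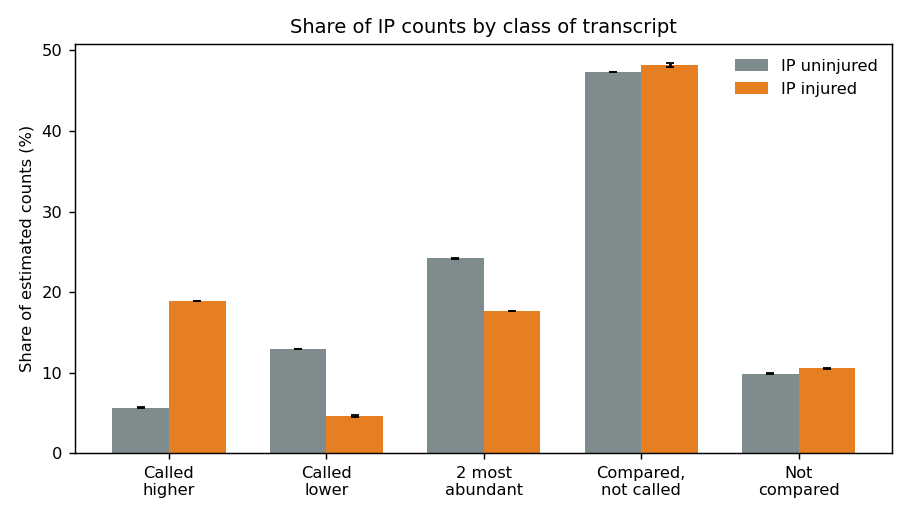
Bars give the share of IP counts held by each class of transcripts in uninjured (grey) and injured (orange) IP, and the lines span the 3 portions. The 682 transcripts called higher go from 5.66% to 18.9%, the 504 called lower from 12.9% to 4.67%, and the 2 most abundant transcripts from 24.2% to 17.6%.

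Among the 78 transcripts with at least 1000 IP counts, 20 were called higher, by 2.06-fold to 7.14-fold, and 17 lower, by 2.29-fold to 3.73-fold. With the 2 most abundant transcripts kept out of the totals, 36 of these 37 were still called. In 4 of the 37 the portions of an IP group differed beyond counting noise. These transcripts are given by rank, were chosen for their abundance, and are not named.

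The most abundant transcript called higher had 1067, 987 and 957 counts in the uninjured portions and 2581, 2547 and 2565 in the injured ones, 2.84-fold (95% counting interval 2.72 to 2.96). The second had 460, 464 and 505 against 1932, 1934 and 1922 counts, 4.50-fold (4.25 to 4.77). Both were almost missing from the input, where the first summed to 2 counts and the second to 5. The third had 489, 492 and 477 against 1822, 1911 and 1863 counts, 4.27-fold (4.03 to 4.52), and its input also rose, from 25 to 108 counts, 4.59-fold (2.95 to 7.41). Its input portions differed beyond counting noise in both groups, with 2.33, 4.63 and 18.3 against 49.1, 20.6 and 38.7 counts. The input interval does not cover that spread. The fifth had the largest fold of the 20, with 251, 246 and 230 against 1586, 1573 and 1508 counts, 7.14-fold (6.60 to 7.73). Its input held 604 counts in uninjured and 543 in injured ganglia, a ratio of 0.956 (0.850 to 1.08). The IP portions of the 2 groups were far apart in each of these 4 transcripts, while their input levels differed widely.

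Further down the same order, the fourth had 745, 720 and 730 counts in the uninjured and 1288, 1386 and 1401 in the injured portions, 2.06-fold higher (1.96 to 2.18). It had the smallest fold of the 20, and its input went the other way, with a ratio of 0.819 (0.801 to 0.838) that is short of a call. The sixth had 270, 260 and 244 against 897, 939 and 897 counts, 3.92-fold (3.62 to 4.25), and no count in any of the 6 input portions. The eighth had 171, 170 and 157 against 612, 610 and 594 counts, 4.05-fold (3.67 to 4.49), and was at the other end of the input, where it held 51039 counts in uninjured and 86662 in injured ganglia. Its input ratio was 1.81 (1.79 to 1.83). Transcripts called higher in IP thus included some without input counts and some among the most abundant of the input. Those without any input count were rare, 10 of the 682 called higher (1.47%). Among transcripts called lower they were 11 of 504 (2.18%), and among those not called 85 of 4125 (2.06%).

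The most abundant transcript called lower had 2603, 2636 and 2545 counts in the uninjured portions and 784, 738 and 786 in the injured ones, 3.03-fold lower (2.89 to 3.18). It ranked 3 in uninjured and 19 in injured IP. The second had 1902, 1987 and 2013 against 646, 593 and 651 counts, 2.81-fold lower (2.67 to 2.96). In the input the first went from 4157 to 2598 counts, a ratio of 0.665 (0.633 to 0.698), and the second from 4976 to 3148, 0.673 (0.643 to 0.704). Both were thus lower in the input as well, by less than the 2-fold that a call needs. The third had 1609, 1617 and 1573 against 519, 540 and 550 counts, 2.68-fold lower (2.53 to 2.84). Its input ratio was 0.973 (0.918 to 1.03), an interval that includes 1. The fourth had 1331, 1415 and 1237 against 516, 528 and 498 counts, 2.32-fold lower (2.19 to 2.47), with an input ratio of 0.624 (0.577 to 0.673). Its uninjured portions differed beyond counting noise, yet the lowest of them was more than any injured portion.

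The fifth fell most among the 17, with 661, 693 and 656 against 152, 179 and 154 counts, 3.73-fold lower (3.37 to 4.12), and had an input ratio of 0.627 (0.579 to 0.680). The sixth shows what portions that disagree look like. It had 678, 462 and 628 counts against 200, 248 and 0, 3.55-fold lower (3.20 to 3.95). Its counting interval does not cover that spread, and edgeR's quasi-likelihood test, with the samples as replicates, gave an adjusted p of 0.246. The eighth had 459, 464 and 462 against 129, 130 and 98 counts, 3.49-fold lower (3.10 to 3.93), and an input ratio of 0.799 (0.707 to 0.901).

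**Figure D3:**
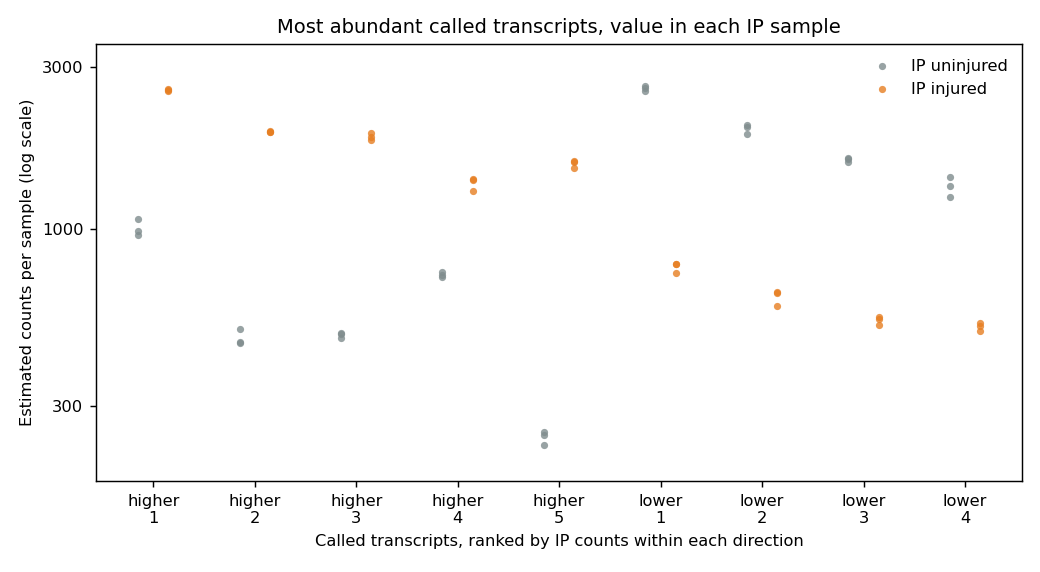
Points are the estimated counts, on a log axis, of the 5 most abundant transcripts called higher and the 4 most abundant called lower, in each uninjured (grey) and injured (orange) IP sample. The 3 values of a group lie close together on this axis, although the uninjured ones of the fourth lower transcript differ beyond counting noise. The groups do not overlap in any of the 9 transcripts, which a call requires.

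The folds furthest from 1 belonged to transcripts of modest count. Those named here are the 2 in each direction whose counting interval lay furthest from 1. ENSMUST00000034215.8 had 0 counts in each uninjured IP portion and 41, 61 and 60 in the injured ones. It was 60.0-fold higher against a floor of 3 counts per group, and at least 48.3-fold by the lower end of the 95% counting interval. ENSMUST00000030401.14 had 0 counts in each uninjured portion and 36.6, 31.1 and 18.4 in the injured ones, 31.9-fold higher against the floor and at least 25.4-fold by its interval. With the samples as replicates, limma-voom did not call these 2 transcripts (adjusted p of 0.0791 and 0.155), while edgeR did (0.000614 and 0.00260). Both were abundant in the input of either condition. The first summed to 3929 counts in uninjured and 4706 in injured input, and the second to 7430 and 5593.

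ENSMUST00000028300.6 went the other way, with 69.3, 56.1 and 57.2 counts in the uninjured IP portions and 0 in each injured one, 54.9-fold lower against the floor and at least 44.2-fold by its interval. ENSMUST00000112848.8 had 45, 49 and 38.7 counts and then 0 in each, 39.9-fold lower against the floor and at least 32.0-fold by its interval. Unlike the transcripts above, these were hardly seen in the input, with 0 counts in each uninjured input portion and 37.2 and 5.21 counts in 1 injured portion. Counts are estimates per transcript, so reads shared by similar transcripts may be counted under either ID. In uninjured input, the 2 most abundant IP transcripts had 551, 335 and 827 against 663, 926 and 450 counts in the 3 portions. Their joint share stayed at 0.0720% to 0.0758%. Whether counts moved between IDs in the named transcripts was not tested. Of the transcripts called higher, 5 had no count in uninjured IP, and of those called lower, 25 had none in injured IP. Such transcripts were compared only where the other group held at least 30 counts, which met the fold and interval clauses in advance. Of all 22552 transcripts detected in IP, 4042 were seen in injured IP alone and 4813 in uninjured IP alone, which had the larger total. The median of each of these sets was 2 counts over the 3 portions, so most of them were at the limit of detection.

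Transcripts higher in injured IP were frequent among those abundant in the input. This division was chosen after the data were seen, and it uses input libraries, which the IP calls do not. Of the 455 compared transcripts with at least 3000 counts over both input groups, 194 were called higher (42.6%) and 12 lower (2.64%). Against these stand 12.8% and 9.49% of all compared transcripts. The median log2 fold in the IP was 0.91, and 381 of the 455 lay above 0. With 300 to 3000 input counts, 15.1% of 1126 transcripts were higher and 8.70% lower, with a median of 0.11. With 30 to 300 input counts, 8.49% of 3168 were higher and 9.94% lower, with a median of -0.04. Of the 562 transcripts with fewer than 30 input counts, 8.72% were higher and 14.1% lower, with a median of -0.30. The share called higher thus went from 8.72% in the class lowest in input to 42.6% in the highest, and the share called lower from 14.1% to 2.64%.

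The highest input class was also examined with other divisions. With the classes set by uninjured input alone, 38.1% of 449 transcripts in the highest class were higher and the median log2 fold was 0.79. With injured input alone these were 46.3% of 458 and 0.98. Among transcripts of the highest class that were not themselves called in input, 143 of 390 (36.7%) were higher in IP, with a median of 0.76. Within the 30 to 100 IP count class, 44.7% of 123 transcripts in the highest input class were higher, against 7.76% of 490 in the lowest. In the 300 to 1000 IP count class these were 42 of 108 transcripts and 3 of 10. At 1000 IP counts and above they were 11 of 44 and 3 of 3, so the few most abundant IP transcripts did not follow this order. Which cells these transcripts came from was not tested, since their names are not paired in the files. The 682 transcripts called higher held 32.6% of the uninjured and 39.0% of the injured input, and the 504 called lower 3.58% and 2.56%.

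**Figure D4:**
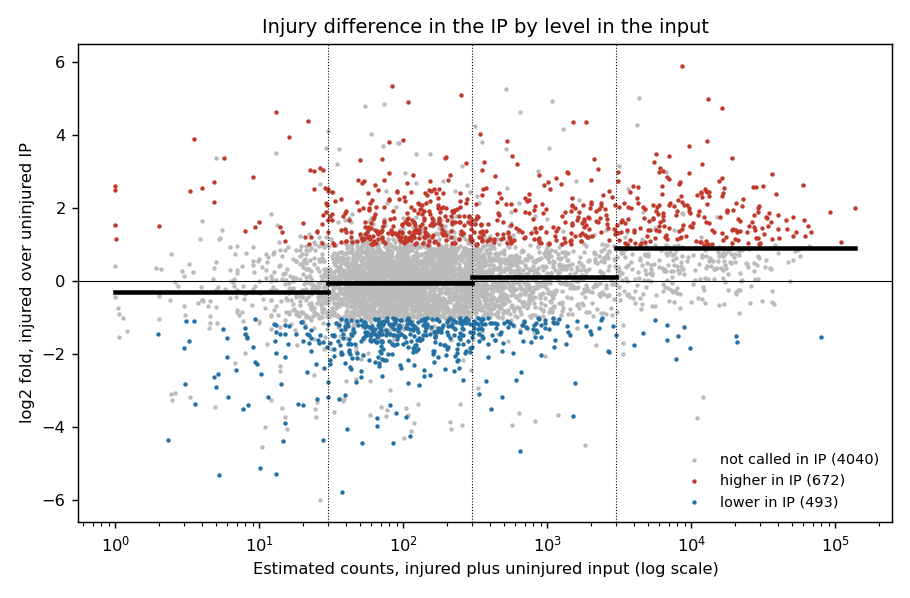
Each point is a compared transcript with its estimated counts over both input groups on a log axis (those with less than 1 input count are not drawn) and its log2 fold of injured over uninjured IP. Black bars mark the median of each input class, divided by dotted lines, and rise from -0.30 under 30 counts to 0.91 at 3000 counts and above.

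The input gave a direction that was shared in part. By the same rule within the input, 1639 of 11213 transcripts (14.6%) were called, 803 higher (7.16%) and 836 lower (7.46%). Of the 4755 transcripts compared in both fractions, 634 were higher in IP and 267 in input, and 151 were higher in both, which is 23.8% of the former and 56.6% of the latter. Another 426 were lower in IP and 253 in input, and 57 were lower in both, 13.4% and 22.5%. Over all 4755 transcripts, 5.62% were higher and 5.32% lower in input. Over all 5311 transcripts compared in IP, 12.8% were higher and 9.49% lower in IP. The median input log2 fold was 0.39 for transcripts called higher in IP, -0.43 for those called lower and -0.16 for the others. Over the 4755 transcripts, as a description across features of the same 4 libraries, Pearson's r between IP and input log2 folds was 0.312 and Spearman's rho 0.327. Most transcripts called in IP were not called in input, 475 of the 634 higher (74.9%) and 365 of the 426 lower (85.7%). Among the 3695 transcripts not called in IP, the share not called in input was higher still, 3395 (91.9%). Whether their injury difference itself was another one in input was not tested.

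**Figure D5:**
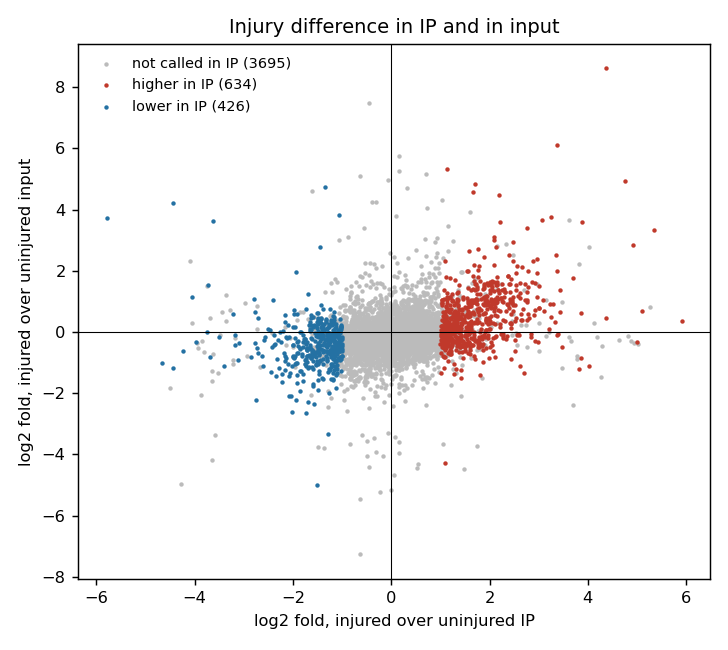
Each point is 1 of the 4755 transcripts compared in both fractions, with its log2 fold of injured over uninjured IP and of injured over uninjured input. Transcripts called higher in IP (red) have a median of 0.39 on the input axis and those called lower (blue) -0.43.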

How the data were processed

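RNA of mouse dorsal root ganglia was sequenced from nanopore PCR-cDNA barcoding libraries, per the labels' protocols. The authors deposited 1 table of estimated counts for each transcript, some of them not whole. Per the submitters' processing notes, the tools were minimap2 and Salmon and the builds GRCm39 and mm39. Roles, versions and settings are not stated in the sources used here.

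All 12 columns were matched to samples by library name. Estimated counts of the 3 samples of a group were summed, rounded, and scaled by the group total. Transcripts with at least 30 counts over both groups were compared by fold and exact conditional (Clopper-Pearson) interval. A group at 0 was set to 3 counts, worth 4.72 CPM in uninjured and 5.25 CPM in injured IP. Whether reads copied from 1 molecule were collapsed by molecular identifiers is not known here. Amplified reads need not be independent, so intervals and floors cover counting error only. IP groups held 636012 (uninjured) and 571960 (injured) counts. Alternatives used edgeR 4.0.16, DESeq2 1.42.0 and limma 3.58.1, with Benjamini-Hochberg adjustment on rounded counts. Those p-values measure only the spread between these samples, which may be technical. Both the counting rule and the edgeR test were run on simulated data. The simulated portions spread less than the real ones, and the changed transcripts had a mean of at least 30 counts per uninjured portion. These runs therefore do not show how often either method errs on the real counts. Named transcripts are the 2 per direction whose interval lies furthest from 1, since no table pairs IDs with names. Sums per gene, which reads shared between transcripts of a gene do not move, and gene lists were not analysed here. The transcripts, lists and rules were chosen with earlier results of these data known.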

Additional observations from a re-analysis of the deposited data

Results flagged for a closer look

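Of the 4755 transcripts compared in both fractions, 8 were called higher with injury in IP and lower in input, and 4 were called lower in IP and higher in input, with every portion on its own side in each fraction. The 8 were 1.26% of the 634 transcripts higher in IP, while 5.32% of all 4755 were lower in input. The 4 were 0.939% of the 426 lower in IP, while 5.62% of all were higher in input. Opposite calls were thus rarer than these shares. The 8 differed by 2.09-fold or more in IP and by 2.15-fold to 2.82-fold in input. The 4 differed by 2.53-fold or more in IP and by 3.86-fold or more in input. These folds rest on few IP counts. For the 8, they were 24 to 117 in injured and 0 to 17 in uninjured IP. For the 4, they were 0 to 46 in injured and 34 to 140 in uninjured IP. Where a fraction had no count in 1 condition, as for 1 of the 8 and 2 of the 4, the fold was taken against the floor of 3 counts. In 3 of the 8 and 3 of the 4, some group had portions that did not agree within counting noise. The difference between the fractions was not tested.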

How the results depend on the processing

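The number of IP transcripts called, 1186 of 5311, lay between 1103 and 1166 when any one portion was dropped, with 4569 to 4638 compared. It became 1875 of 10032 with at least 10 counts, 433 of 1723 with at least 100 and 2080 of 13480 without a filter. At 4-fold it was 318 of 5311. More or fewer transcripts can pass in these settings. With the samples as replicates it was 717 of 3135 in limma-voom, 468 of 22546 in edgeR without a filter and 170 of 5787 in DESeq2. The cause was not tested. With the replicate number as a block, edgeR called 575 of 3135 against 955 without it. Same-numbered injured and uninjured IP samples had deviations correlated at r of 0.341, -0.493 and -0.389 over 165 transcripts, so the numbers were not taken as pairs. Between samples of unlike number, r ran from -0.422 to 0.664, the latter for injured sample 2 with uninjured sample 3. Whether the samples pair in another order was not tested. With 1 sample left out edgeR called 637 to 752.

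The share of called transcripts that were higher, 57.5%, lay between 53.8% and 60.5% when any one portion was dropped. It became 49.0% with TMM factors of all 4 groups, 48.6% without the 2 most abundant transcripts in the totals, 60.9% without a filter and 67.0% at 4-fold. It was 51.5% in edgeR, 51.8% with DESeq2 size factors in edgeR, 52.2% with the replicate block, 50% in edgeR without a filter, 49.9% in limma-voom and 64.7% in DESeq2. Transcripts called in the same direction in IP and input, 208, became 314, 99 and 339 with at least 10 counts, at least 100 counts and no filter, and 24 at 4-fold. The share called higher among transcripts with at least 3000 input counts, 42.6%, was 37.6% without the 2 most abundant transcripts in the totals and 15.6% at 4-fold, and 41.5% to 44.4% with 1 portion left out. These alternatives for the input classes were chosen after seeing the data. The median log2 fold of all compared transcripts, 0.03, lay between -0.09 and 0.09 over the alternatives run. ENSMUST00000034215.8 and ENSMUST00000030401.14 were not called in limma-voom (adjusted p of 0.0791 and 0.155). The 4 named transcripts kept their direction under every alternative that gave a value. Each had 0 counts in every portion of 1 IP group, so these alternatives could not have reversed it. The sums per gene were not run.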
